A study of Mus musculus with 11 samples.

Results

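The genes described here are a set of mouse plasmacytoid dendritic cell genes: Siglech, Bst2, Runx2, Pacsin1, Cox6a2, Lair1, Cd300c and Klk1. They were taken by symbol, and each gene was represented by the probe set that carried its symbol alone and had the highest mean over all 11 arrays. Such a probe set was found for 7 of the 8 genes, out of 22180 genes measured in the series, and each of the 7 had exactly 1; Runx2 was not analysed here. Expression was measured on Affymetrix arrays in common lymphoid progenitors (CLPs), bone marrow cells that can form lymphocytes and, in part, dendritic cells. All mice were of the C57BL/6 strain, and all of them were injected every other day over 10 days, either with 50 µg of CpG1826, a synthetic DNA ligand of Toll-like receptor 9, or with PBS, the vehicle. The marrow was taken on day 10 and the CLPs were separated by surface Ly-6D, a protein that marks CLPs entering the B lineage. The 4 groups were Ly-6D+ CLPs after CpG (3 arrays), Ly-6D+ CLPs after PBS (2 arrays), Ly-6D- CLPs after CpG (3 arrays) and Ly-6D- CLPs after PBS (3 arrays). The age and sex of the mice, and whether an array came from 1 mouse or a pool, were not stated in the labels used here, so the p-values measure only the spread between these samples, which may be technical.

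Plasmacytoid dendritic cells are blood and marrow cells that sense viral nucleic acids through the endosomal receptors TLR7 and TLR9 and answer with large amounts of type I interferon. In mouse marrow they can arise from myeloid and from lymphoid progenitors, and their identity is held by the transcription factor E2-2 (Tcf4) with Spib, Irf8, Bcl11a and Runx2. Siglec-H and BST2 are the surface proteins by which mouse plasmacytoid dendritic cells are usually recognised, but BST2 is also induced by interferon in many other cells.

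RefSeq promoter windows (build GRCm38.p6, 250 bases before to 50 bases after the start site) were matched by symbol for 6 of the 7 measured genes. For Pacsin1 and Lair1 the window lay inside the annotated span of the gene, and any start site farther upstream was not searched. Those of 4 genes are shown because the results turn on them: Siglech, Bst2 and Pacsin1 were higher in Ly-6D+ CLPs under both treatments, and Cd300c was the gene that rose after CpG. Core motifs of E proteins, Runx, ETS and interferon regulatory factors were searched in all 6. The windows shown are Siglech (chr7:55767934-55768233, plus strand), Bst2 (chr8:71537423-71537722, minus strand), Pacsin1 (chr17:27684989-27685288, plus strand) and Cd300c (chr11:114960458-114960757, minus strand). Each is printed 5′ to 3′ in the direction of the gene, and capitals mark every match on either strand.
Siglech: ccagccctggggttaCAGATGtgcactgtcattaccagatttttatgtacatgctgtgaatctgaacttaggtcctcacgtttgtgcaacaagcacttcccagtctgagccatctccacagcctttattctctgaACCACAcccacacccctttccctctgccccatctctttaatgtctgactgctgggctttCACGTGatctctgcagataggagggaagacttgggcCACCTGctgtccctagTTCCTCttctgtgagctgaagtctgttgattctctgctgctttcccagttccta
Bst2: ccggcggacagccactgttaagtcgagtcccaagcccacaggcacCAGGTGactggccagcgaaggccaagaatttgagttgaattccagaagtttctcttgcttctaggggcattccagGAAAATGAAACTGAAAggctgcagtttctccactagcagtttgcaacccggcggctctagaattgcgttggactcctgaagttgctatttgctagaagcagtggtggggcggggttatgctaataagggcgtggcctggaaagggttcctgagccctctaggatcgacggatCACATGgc
Pacsin1: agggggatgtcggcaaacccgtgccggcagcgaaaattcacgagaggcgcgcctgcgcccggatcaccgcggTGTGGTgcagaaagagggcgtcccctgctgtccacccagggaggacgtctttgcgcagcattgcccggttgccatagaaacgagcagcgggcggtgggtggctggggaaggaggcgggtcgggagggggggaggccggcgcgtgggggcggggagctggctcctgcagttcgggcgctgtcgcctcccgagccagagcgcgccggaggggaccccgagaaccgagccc
Cd300c: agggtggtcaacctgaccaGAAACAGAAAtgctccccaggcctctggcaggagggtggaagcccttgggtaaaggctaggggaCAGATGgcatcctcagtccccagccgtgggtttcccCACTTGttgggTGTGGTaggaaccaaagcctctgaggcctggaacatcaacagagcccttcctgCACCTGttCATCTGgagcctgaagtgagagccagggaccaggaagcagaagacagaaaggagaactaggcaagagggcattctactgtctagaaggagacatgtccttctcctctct
The E-box CANNTG, the core bound by E proteins such as E2-2, was in 5 of the 6 promoters, and in 72.3% of 32851 mouse promoters of the same length. Siglech held it at 3 places, Cd300c at 4 and Bst2 at 2, while Pacsin1 held none. The Runx core TGTGGT was in Siglech, Pacsin1 and Cd300c, and in 16.8% of all promoters. The ETS core GAGGAA, of the kind bound by Spib and PU.1, was in Siglech and Lair1, and in 28.3% of all promoters. The interferon-stimulated response element, searched as GAAA, any 2 bases and GAAA, lay in Bst2, where 2 overlapping matches lie at positions -130 to -115 from the start site, and once in Cd300c, and in 3.44% of all promoters. These matches describe the letters of the windows, and no binding was measured.

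Ly6d itself followed the sort. Its log2 level after the authors' RMA normalisation was 12.55, 12.57 and 12.61 in Ly-6D+ CLPs after CpG and 12.56 and 12.59 in Ly-6D+ CLPs after PBS, against 7.63, 7.47 and 8.08 in Ly-6D- CLPs after CpG and 8.03, 8.15 and 8.50 in Ly-6D- CLPs after PBS. The arrays were alike as wholes, with medians between 3.85 and 3.96 and correlations across all probe sets of 0.978 to 0.982 within groups and 0.973 to 0.981 between groups. Markers of common lymphoid progenitors (Il7r, Flt3, Kit, Dntt, Satb1 and Cd27, 6 of 7 listed) had a mean level of 9.90 to 10.09, 9.95 to 9.98, 9.66 to 10.00 and 10.17 to 10.24 on the arrays of the Ly-6D+ CpG, Ly-6D+ PBS, Ly-6D- CpG and Ly-6D- PBS groups. They also differed between groups, as given with the other cell markers.

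Most of these genes were higher in Ly-6D+ than in Ly-6D- CLPs, whichever treatment the mice had received. After CpG, 4 of the 7 passed the test as higher in Ly-6D+ CLPs (limma, Benjamini-Hochberg adjusted p below 0.05 over all 22180 genes), where 1.2% of all genes did, and the median log2 difference of the 7 was 0.83, beside -0.0041 for all genes. After PBS, 6 of the 7 passed in the same direction, where 1.18% of all genes did, with a median of 1.09, beside -0.0091 for all genes. That median is the value of Klk1, which did not pass, and it lies between Bst2 at 0.97 and Pacsin1 at 1.36. CpG treatment itself moved few of them. None of the 7 passed in Ly-6D+ CLPs, where 0.0271% of all genes passed in either direction and 1443 genes had an unadjusted p below 0.05, and none passed under the alternatives run. In Ly-6D- CLPs 1 of the 7 rose, Cd300c, where 0.546% of all genes passed. The comparisons share groups: the Ly-6D- PBS arrays enter both the population comparison after PBS and the CpG effect in Ly-6D- CLPs.

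**Figure D1:**
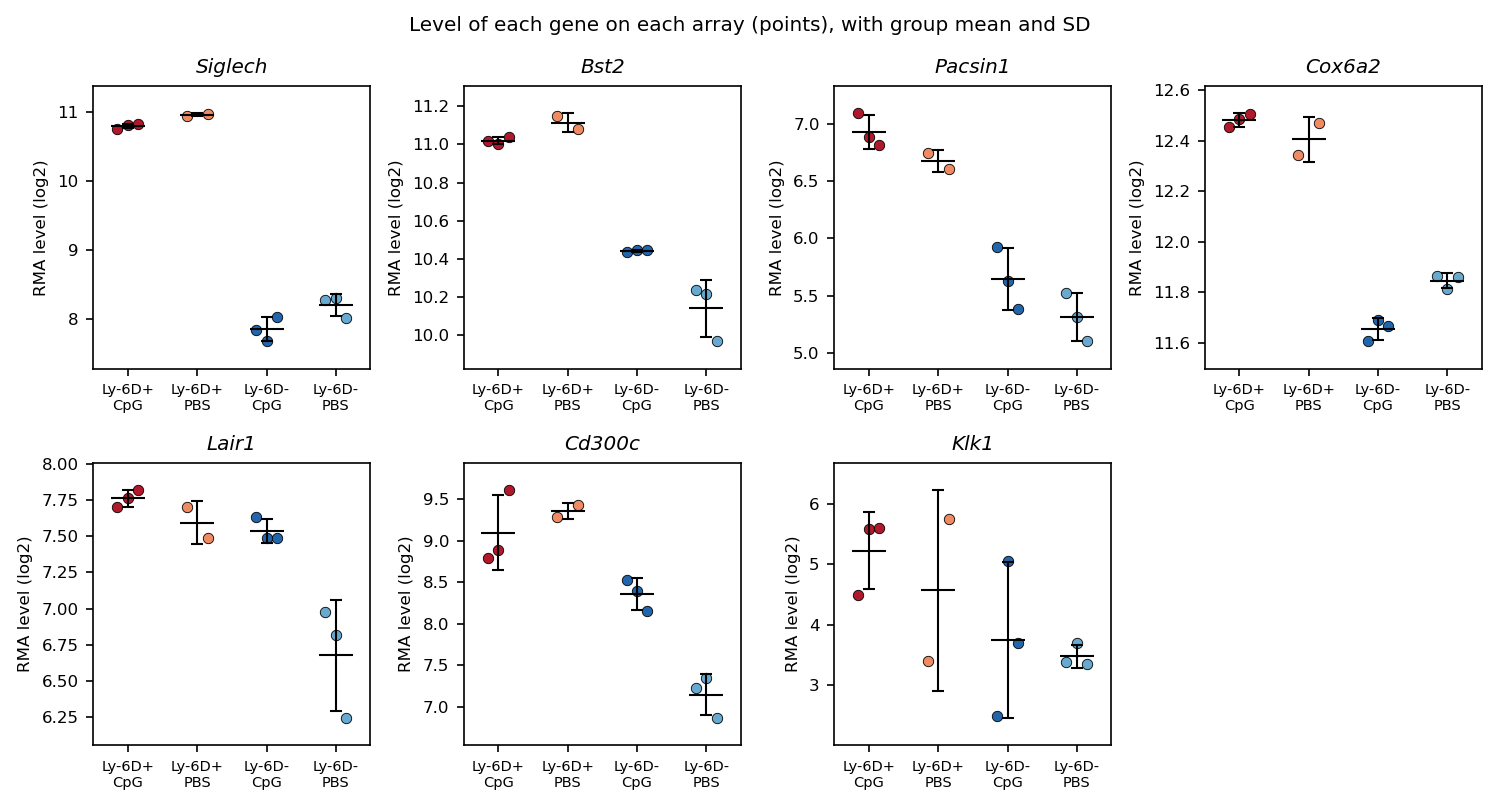
Level of each of the 7 measured plasmacytoid dendritic cell genes on each of the 11 arrays (y axis, log2 RMA level; each point is 1 array, the wide bars are group means and the whiskers 1 SD; each panel has its own range), by population and treatment. Siglech, Bst2, Pacsin1 and Cox6a2 lie higher on all 5 Ly-6D+ arrays than on all 6 Ly-6D- arrays, while Lair1 and Cd300c lie lowest in Ly-6D- CLPs after PBS.

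The surface receptors come first. Siglec-H, encoded by Siglech (probe set 17478511), is a sialic acid-binding lectin that signals through the adaptor DAP12 and restrains interferon production. Siglech stood at 10.77, 10.82 and 10.83 in Ly-6D+ CLPs after CpG and at 10.95 and 10.98 in Ly-6D+ CLPs after PBS. In Ly-6D- CLPs it stood at 7.84, 7.69 and 8.03 after CpG and at 8.28, 8.31 and 8.02 after PBS. Every Ly-6D+ array was thus more than 2 log2 units above every Ly-6D- array. The difference was 2.95 after CpG (SE 0.11, 95% interval 2.70 to 3.20, limma adjusted p = 4.93e-07), which is 7.73-fold. After PBS it was 2.77 (SE 0.13, interval 2.49 to 3.04, limma adjusted p = 2.27e-06), which is 6.80-fold. Within a population the level was slightly lower after CpG, by amounts that did not pass: -0.16 in Ly-6D+ CLPs (interval -0.44 to 0.12, limma adjusted p = 0.918) and -0.35 in Ly-6D- CLPs (interval -0.60 to -0.10, limma adjusted p = 0.232). The arrays of the treatments did not overlap in Ly-6D+ CLPs, and did in Ly-6D- CLPs.

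BST2, or tetherin, holds budding virus particles at the cell surface and is the antigen of the PDCA-1 antibody used on mouse plasmacytoid dendritic cells. Bst2 (probe set 17510345) had levels of 11.017, 11.004 and 11.037 in Ly-6D+ CLPs after CpG and of 11.15 and 11.08 in Ly-6D+ CLPs after PBS. The Ly-6D- arrays read 10.44, 10.44 and 10.45 after CpG and 10.24, 10.21 and 9.97 after PBS. All Ly-6D+ arrays were above all Ly-6D- arrays. The gap was 1.49-fold after CpG (log2 0.58, SE 0.09, interval 0.37 to 0.78, limma adjusted p = 0.00850) and 1.96-fold after PBS (log2 0.97, SE 0.10, interval 0.74 to 1.20, limma adjusted p = 7.55e-04). CpG minus PBS was -0.09 in Ly-6D+ CLPs (SE 0.10, limma adjusted p = 0.962) and 0.30 in Ly-6D- CLPs (SE 0.09, interval 0.10 to 0.51, limma adjusted p = 0.204). The arrays did not overlap in either population, although neither change passed, and the difference between the populations' changes, -0.40 (SE 0.14), did not pass either (limma adjusted p = 0.688).

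Of 22 other interferon-stimulated genes measured (25 listed), 0 rose and 1 fell in Ly-6D- CLPs after CpG, where 0.546% of all genes passed. Their median log2 change was -0.30, beside 0.00 for all genes. The gene that fell was Ddx58, which encodes the RNA sensor RIG-I (-0.82, SE 0.15, limma adjusted p = 0.0465). On leaving out each array in turn, that call held only without replicate 3 of the CpG-treated Ly-6D- group, with limma adjusted p up to 0.178 otherwise. In Ly-6D+ CLPs none of the 22 passed, and the median change was -0.01. Between the populations after PBS, 2 passed as lower in Ly-6D+ CLPs (Oasl2 and Ddx58) and 0 as higher. The median was -0.28, and 0.798% and 1.18% of all genes passed. This Ddx58 call was lost without replicate 2 of the PBS-treated Ly-6D+ group, which leaves 1 array there (changes over all 11 omissions -1.23 to -1.05). After CpG, 1 passed as higher (Stat2) and 1 as lower (Oasl2), with a median of -0.11, beside 1.2% and 0.938% of all genes. This Oasl2 call was lost without replicate 1 or 3 of the CpG-treated Ly-6D+ group, among others.

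Cd300c (probe set 17271719) belongs to the CD300 family of paired immunoglobulin-like receptors on leukocytes. Its levels were 8.79, 8.88 and 9.61 in Ly-6D+ CLPs after CpG and 9.28 and 9.42 in Ly-6D+ CLPs after PBS. In Ly-6D- CLPs they were 8.52, 8.39 and 8.15 after CpG and 7.22, 7.35 and 6.87 after PBS. The Ly-6D- PBS arrays were the low ones: all 3 lay below all 3 Ly-6D- CpG arrays, and these lay below every Ly-6D+ array. The CpG effect in Ly-6D- CLPs was 2.31-fold (log2 1.21, SE 0.21, interval 0.75 to 1.67, limma adjusted p = 0.0416). In Ly-6D+ CLPs it was -0.26 (SE 0.23, interval -0.78 to 0.26, limma adjusted p = 0.945), with overlapping arrays. The difference of these changes, -1.47 (SE 0.31, interval -2.16 to -0.77), had an unadjusted p of 7.81e-04 and did not pass over all genes (limma adjusted p = 0.538). No gene passed for this difference in limma (0% of 22180), while 1413 had an unadjusted p below 0.05; other settings gave 0 or 1 gene. The population gap after CpG was 1.67-fold (log2 0.74, SE 0.21, interval 0.28 to 1.20) and did not pass (limma adjusted p = 0.127), and after PBS it was 4.62-fold (log2 2.21, SE 0.23, interval 1.69 to 2.73, limma adjusted p = 7.55e-04). The rise after CpG was close to the threshold. On leaving out each array in turn it passed without replicate 3 of either CpG-treated population. It ended without replicate 1 or 2 of either CpG-treated population, without either array of the PBS-treated Ly-6D+ CLPs, and without replicate 1, 2 or 3 of the PBS-treated Ly-6D- CLPs. Over these 11 fits the change was 1.07 to 1.31 and the limma adjusted p reached 0.176.

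LAIR-1 is an inhibitory receptor for collagens. Lair1 (probe set 17485673) was at 7.70, 7.76 and 7.82 in Ly-6D+ CLPs after CpG, and at 7.70 and 7.49 in Ly-6D+ CLPs after PBS. Ly-6D- CLPs had 7.63, 7.49 and 7.49 after CpG and 6.97, 6.81 and 6.25 after PBS. As with Cd300c, the Ly-6D- PBS arrays were apart and low, and the other 8 lay between 7.49 and 7.82, with 1 value shared by 3 arrays; such ties occurred in 42.3% of all probe sets. After CpG the populations differed by 0.22 (SE 0.16, interval -0.14 to 0.59, limma adjusted p = 0.640). After PBS Lair1 was higher in Ly-6D+ CLPs by 1.89-fold (log2 0.92, SE 0.18, interval 0.51 to 1.32, limma adjusted p = 0.0309). That call was lost on leaving out replicate 1 or 2 of either Ly-6D+ group, or replicate 2 of either Ly-6D- group (changes over all 11 omissions 0.70 to 1.06, limma adjusted p up to 0.224). CpG minus PBS in Ly-6D- CLPs was 0.86 (SE 0.16, interval 0.50 to 1.22), or 1.81-fold, just outside the threshold at a limma adjusted p of 0.0522, and its arrays did not overlap. The same difference in Ly-6D+ CLPs was 0.17 (SE 0.18, limma adjusted p = 0.961).

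Inside the cell, Pacsin1 encodes a membrane-bending F-BAR protein of endocytic traffic, known from neurons and, in mouse plasmacytoid dendritic cells, from the interferon response to TLR9 ligands. Pacsin1 (probe set 17335145) read 7.09, 6.88 and 6.81 in Ly-6D+ CLPs after CpG and 6.74 and 6.61 in Ly-6D+ CLPs after PBS. In Ly-6D- CLPs it read 5.93, 5.63 and 5.39 after CpG and 5.52, 5.32 and 5.11 after PBS. All Ly-6D+ arrays were higher, by 2.42-fold after CpG (log2 1.28, SE 0.15, limma adjusted p = 0.00136) and by 2.56-fold after PBS (log2 1.36, SE 0.17, limma adjusted p = 0.00227). The CpG differences were 0.25 in Ly-6D+ CLPs (interval -0.12 to 0.63) and 0.34 in Ly-6D- CLPs (interval -0.0037 to 0.67), and neither passed (limma adjusted p = 0.894 and 0.421).

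Cox6a2 (probe set 17496857) encodes the heart and muscle form of a subunit of cytochrome c oxidase, the last complex of the respiratory chain. Its levels were 12.45, 12.48 and 12.51 in Ly-6D+ CLPs after CpG and 12.34 and 12.47 in Ly-6D+ CLPs after PBS. They were 11.61, 11.69 and 11.67 in Ly-6D- CLPs after CpG and 11.87, 11.81 and 11.86 in Ly-6D- CLPs after PBS. The populations were separate on every array, by 1.77-fold after CpG (log2 0.83, SE 0.08, limma adjusted p = 3.71e-04) and 1.47-fold after PBS (log2 0.56, SE 0.09, limma adjusted p = 0.00933). The call after PBS was lost without replicate 2 of the PBS-treated Ly-6D+ group (limma adjusted p = 0.0944). The 3 Ly-6D- CpG arrays lay just below the 3 Ly-6D- PBS arrays, a difference of -0.19 (SE 0.08, interval -0.37 to -0.01) that did not pass (limma adjusted p = 0.369), and in Ly-6D+ CLPs it was 0.08 (SE 0.09, limma adjusted p = 0.967). None of the 3 related subunit genes measured, Cox6a1, Cox6b1 and Cox6b2, passed in any of the 6 comparisons. Few of all genes did: between the populations, 1.2% passed as higher after CpG and 1.18% after PBS.

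Klk1 (probe set 17477391) encodes tissue kallikrein, a secreted serine protease that releases kinins, and has many near-identical neighbours in the mouse, so its signal may be shared with theirs. It read 4.49, 5.58 and 5.60 in Ly-6D+ CLPs after CpG and 3.39 and 5.75 in Ly-6D+ CLPs after PBS. In Ly-6D- CLPs it read 2.48, 5.05 and 3.70 after CpG and 3.38, 3.69 and 3.34 after PBS. Replicates differed by more than 2 log2 units in 2 of the groups, the groups overlapped in all comparisons, and nothing passed. The population difference was 1.48 after CpG (interval -0.0040 to 2.97, limma adjusted p = 0.395) and 1.09 after PBS (interval -0.57 to 2.75, limma adjusted p = 0.661). CpG minus PBS was 0.66 in Ly-6D+ CLPs (SE 0.75) and 0.27 in Ly-6D- CLPs (SE 0.67), and both changed sign on leaving out single arrays (-0.52 to 1.83 and -0.38 to 0.90).

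**Figure D2:**
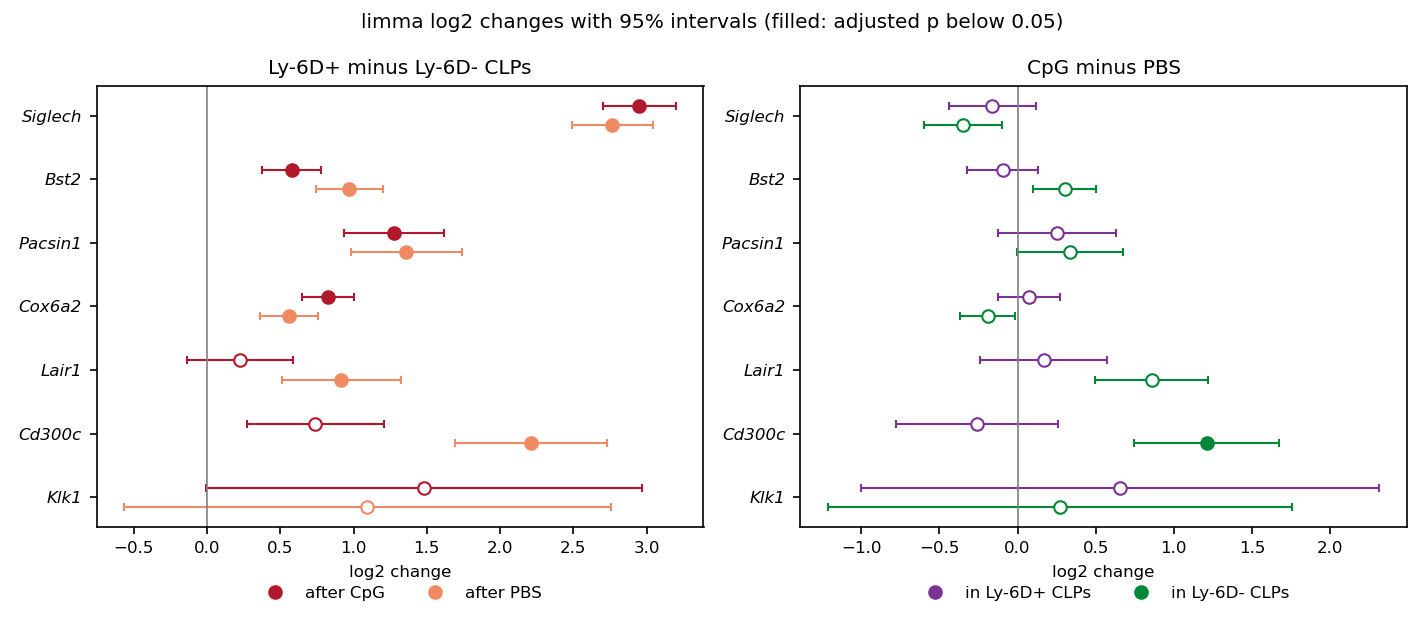
Differences of the 7 genes (x axis, log2) with 95% intervals from limma; on the left Ly-6D+ minus Ly-6D- CLPs after CpG and after PBS, on the right CpG minus PBS in each population. Filled points have an adjusted p below 0.05: 4 genes after CpG, 6 after PBS, and Cd300c alone among the CpG effects.

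Separation of arrays was common among all genes. The arrays of the populations did not overlap for 6 of the 7 genes after CpG, where this held for 16.9% of all genes, and for 6 of the 7 after PBS, where it held for 26.9%. Between the treatments they did not overlap for 4 of the 7 in Ly-6D+ CLPs, with Siglech and Bst2 lower and Pacsin1 and Lair1 higher after CpG, where 20.4% of all genes did not overlap. In Ly-6D- CLPs it was again 4 of the 7, with Cd300c, Lair1 and Bst2 higher and Cox6a2 lower after CpG, beside 15.7% of all genes. Averaged over both populations, the CpG effect passed for none of the 7 in limma, where 0.482% of all genes passed and 2516 had an unadjusted p below 0.05. The nearest were Lair1 (0.51, SE 0.12, limma adjusted p = 0.120) and Cd300c (0.48, SE 0.16, limma adjusted p = 0.265). Siglech averaged -0.25 (SE 0.08, limma adjusted p = 0.266).

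Other genes of plasmacytoid dendritic cells were taken from a list of 26, of which 25 were measured. After CpG 10 of the 25 passed as higher in Ly-6D+ CLPs and 0 as lower, beside 1.2% of all genes passing as higher and 0.938% as lower; 23 had a positive sign, and the median difference was 0.46. After PBS 12 of the 25 passed as higher and 0 as lower, beside 1.18% and 0.798% of all genes; 19 had a positive sign, and the median was 0.55. Leaving out single arrays gave 8 to 10 after CpG and 8 to 12 after PBS. Several of the genes that passed also serve B cells: Spib, an ETS-family transcription factor, Blnk, an adaptor of the B-cell receptor, and Fcrla, an Fc receptor-like protein. Spib averaged 8.16 ± 0.32 in Ly-6D+ CLPs after CpG (SD, n = 3) and 8.37 ± 0.03 after PBS (n = 2), and in Ly-6D- CLPs 5.16 ± 0.85 after CpG and 4.48 ± 0.43 after PBS (n = 3 each). The population difference of Spib was 2.999 after CpG (SE 0.37, limma adjusted p = 0.00154) and 3.89 after PBS (SE 0.41, limma adjusted p = 7.52e-04). Fcrla was higher by 2.43 and 2.90, and Blnk by 1.93 and 1.502, after CpG and after PBS (limma adjusted p at most 0.00227). These 3 genes passed on leaving out any array. So did Mctp2 and Smim5 under both treatments, Ccr9 after CpG and Upb1 after PBS, all higher in Ly-6D+ CLPs. Lifr and Havcr1 passed under both treatments and Pld4 after PBS, but not in every such fit. The Havcr1 call after CpG held in 1 of 11.

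The nucleic acid sensing genes of that list came next. Tlr9, the receptor for CpG DNA, averaged 7.96 ± 0.30 in Ly-6D+ CLPs after CpG (SD, n = 3) and 7.97 ± 0.01 after PBS (n = 2), against 7.24 ± 0.15 in Ly-6D- CLPs after CpG and 6.37 ± 0.34 after PBS (n = 3 each). Its population difference after CpG, 0.72, did not pass (limma adjusted p = 0.0945), and after PBS it was 1.60 higher in Ly-6D+ CLPs (SE 0.21, limma adjusted p = 0.00280). Its lowest group was thus the one in which Cd300c and Lair1 were lowest, and its CpG difference in Ly-6D- CLPs, 0.87 (SE 0.19), did not pass (limma adjusted p = 0.0760). Tlr7, the receptor for single-stranded RNA, fell in Ly-6D- CLPs after CpG by 0.75 on the log2 scale (SE 0.12, limma adjusted p = 0.0300), and was higher in Ly-6D+ CLPs after CpG by 0.59 (SE 0.12, limma adjusted p = 0.0311). That population call held only without replicate 3 of the CpG-treated or 2 or 3 of the PBS-treated Ly-6D- group (up to 0.130 otherwise). Unc93b1, which carries TLR7 and TLR9 to endosomes, was higher in Ly-6D+ CLPs after PBS by 0.50 (SE 0.11, limma adjusted p = 0.0465), a call held only without replicate 3 of the CpG-treated Ly-6D- group (up to 0.266 otherwise). Irf7, the regulator of interferon genes, passed in no comparison. Tcf4 was higher in Ly-6D+ CLPs after CpG by 0.64 (SE 0.10, limma adjusted p = 0.00781), and its 0.37 after PBS did not pass (limma adjusted p = 0.176). The population difference of Irf8 after CpG, 0.24, did not pass (limma adjusted p = 0.281), and after PBS Irf8 was higher in Ly-6D+ CLPs by 0.72 (SE 0.10, limma adjusted p = 0.00404). The population calls of Tlr9, Tcf4 and Irf8 held on leaving out any array.

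By limma, CpG changed 3 of the 25 in the Ly-6D- population, beside 0.546% of all genes, and 0 in the Ly-6D+ population, beside 0.0271%. In the Ly-6D+ population 1443 of all genes had an unadjusted p below 0.05. The 2 that rose in Ly-6D- CLPs were Ly6c2, a surface protein of plasmacytoid cells and of monocytes (1.09, SE 0.17, limma adjusted p = 0.0300), and Upb1, a pyrimidine-degrading enzyme (0.95, SE 0.14, limma adjusted p = 0.0251), and the 1 that fell was Tlr7. On leaving out each array in turn the calls of Ly6c2 and Tlr7 held in 3 of 11 fits each and that of Upb1 in 7 of 11. The calls of Ly6c2 and Tlr7 were lost without replicate 1 of the CpG-treated Ly-6D+ group, replicate 1 or 2 of the CpG-treated Ly-6D- group, or any PBS array of either population (limma adjusted p up to 0.133 and 0.135), and that of Upb1 without replicate 1 or 2 of the CpG-treated or 2 or 3 of the PBS-treated Ly-6D- group (up to 0.128). The range over these fits was 0 to 3 rising and 0 to 3 falling genes. Averaged over both populations, Lag3, a checkpoint receptor found on plasmacytoid dendritic cells, rose (0.49, SE 0.09, limma adjusted p = 0.0486), a call held in 2 of 11 such fits, those without replicate 3 of a CpG-treated population (up to 0.163 in the others).

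**Figure D3:**
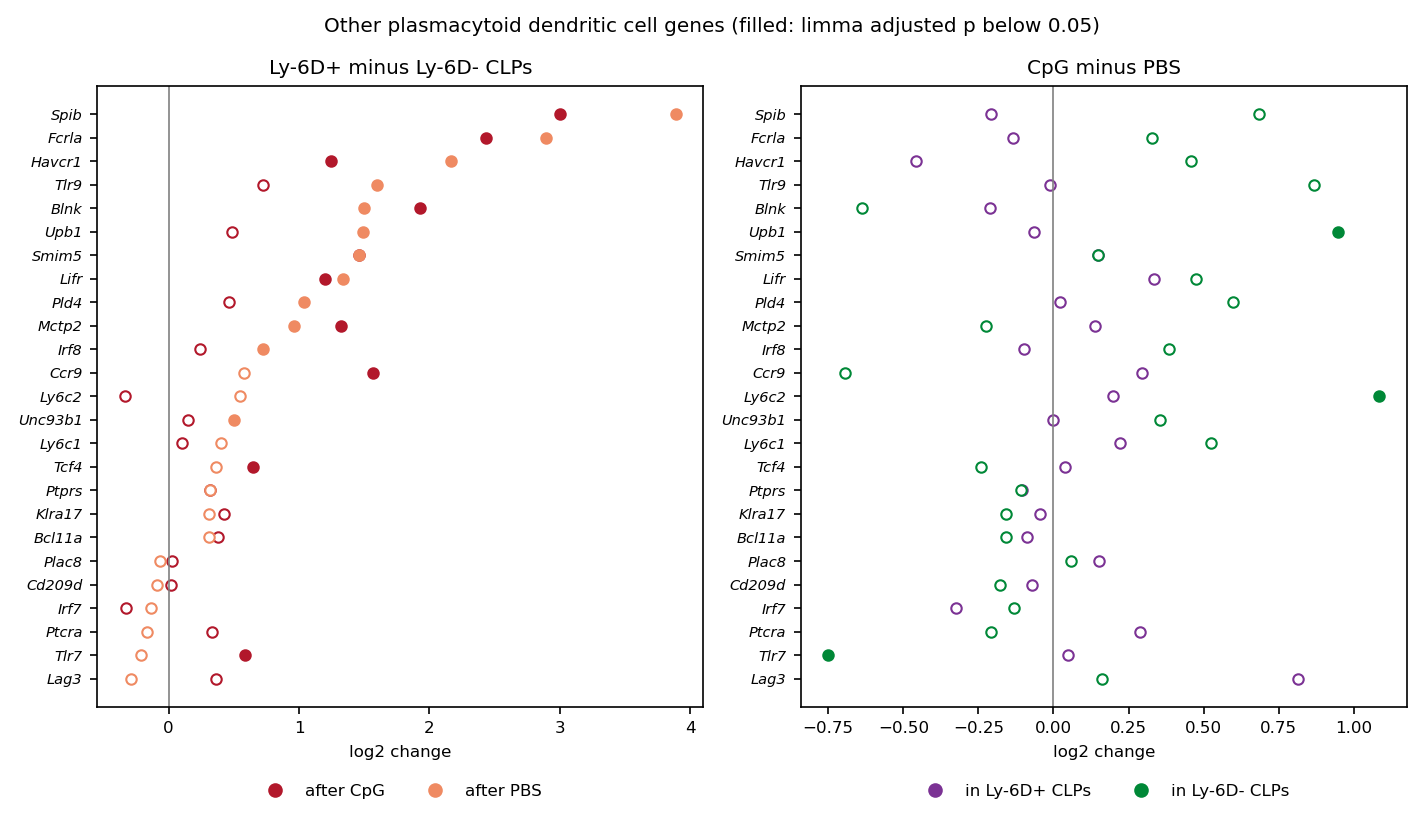
Differences of 25 other plasmacytoid dendritic cell genes (x axis, log2; genes on the y axis in the order of their difference after PBS), on the left Ly-6D+ minus Ly-6D- CLPs and on the right CpG minus PBS; filled points have a limma adjusted p below 0.05. On the left 10 genes after CpG and 12 after PBS are filled, all to the right of 0, and on the right Upb1, Ly6c2 and Tlr7 in Ly-6D- CLPs.

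Markers of other marrow cells moved along the same contrasts, and their part in the values above was not tested. In bulk RNA, a change in the number of cells of a type and a change in RNA per cell cannot be told apart. Of 17 monocyte and granulocyte genes measured (18 listed), 4 rose and 0 fell in Ly-6D- CLPs after CpG, with a median of 0.23. Of all genes, 0.546% passed there. Among the 4 were F13a1, a coagulation factor subunit of monocytes (1.81, limma adjusted p = 0.0101), and Ccr2, a monocyte chemokine receptor (1.57, 0.0101). The others were Klf4, a transcription factor of monocytes (1.34, 0.0101), and Ms4a6c, a membrane protein of myeloid cells (1.28, 0.0300). The first 3 calls were lost without replicate 2 of the CpG-treated or 3 of the PBS-treated Ly-6D- group (limma adjusted p up to 0.0637), and that of Ms4a6c held without replicate 2 or 3 of the CpG-treated Ly-6D+ group, 3 of the CpG-treated or 1 of the PBS-treated Ly-6D- group alone (up to 0.128 otherwise). The mean level of the 17 was 8.11 to 8.65 on Ly-6D- CpG arrays and 7.65 to 7.86 on Ly-6D- PBS arrays, and it was 7.41 to 7.82 on Ly-6D+ CpG arrays and 7.23 to 7.50 on Ly-6D+ PBS arrays. By group mean, 10 of the 17 were highest in Ly-6D- CLPs after CpG, the group in which Cd300c and Ly6c2 rose, and 7 were not. The granulocyte genes S100a8, S100a9, Ngp, Camp and Elane had their highest mean in Ly-6D- CLPs after PBS (CpG minus PBS -0.29 to -0.04, none passing). Mpo went the other way, with its highest mean in Ly-6D- CLPs after CpG (CpG minus PBS 0.16, limma adjusted p = 0.796). Between the populations the order was the reverse of that of Cd300c: 6 of the 17 were lower in Ly-6D+ CLPs after CpG, where 0.938% of all genes were, and 2 after PBS, where 0.798% were, and 0 were higher in either.

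The markers of common lymphoid progenitors also moved. All 6 had a negative sign in Ly-6D- CLPs after CpG, with a median of -0.33, and 1 passed, beside 0.546% of all genes. Il7r, the receptor for interleukin 7, fell by 0.81 on the log2 scale (SE 0.13, limma adjusted p = 0.0300). That call held only without replicate 2 or 3 of the CpG-treated Ly-6D+ group or 3 of the CpG-treated Ly-6D- group (up to 0.132 otherwise). In Ly-6D+ CLPs 0 passed and 4 of the 6 had a positive sign. Between the populations, Il7r was higher in Ly-6D+ CLPs after CpG (1.46, limma adjusted p = 1.76e-04) and after PBS (0.68, 0.0365), and the stem cell factor receptor gene Kit was lower after CpG (-0.67, 0.0160) and after PBS (-1.08, 0.00210). Cd27, a co-stimulatory receptor, was lower after PBS (-0.67, 0.0261). Some of these calls were lost on leaving out an array: Kit after CpG without replicate 1 or 3 of the CpG-treated Ly-6D+ group (up to 0.0736), Cd27 without any of the 5 PBS arrays (up to 0.206), and Il7r after PBS without any PBS array or replicate 1 of a CpG-treated population (up to 0.176).

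Conventional dendritic cell genes (13 measured of 14) gave 0 calls in Ly-6D- CLPs after CpG by limma, where 0.546% of all genes passed. There 2664 of all genes had an unadjusted p below 0.05. The array means of the 13 genes were 5.58 to 5.90 after CpG and 5.30 to 5.42 after PBS. In Ly-6D+ CLPs their array means were 5.61 to 5.70 after CpG and 5.43 to 5.58 after PBS. Between the populations, 1 gene passed as higher and 1 as lower after CpG, and 1 as higher and 0 as lower after PBS. Of all genes, 1.2% passed as higher and 0.938% as lower after CpG, and 1.18% and 0.798% after PBS. Itgax, which encodes CD11c of dendritic cells, was higher in Ly-6D+ CLPs after CpG (0.86, SE 0.16, limma adjusted p = 0.0180) and after PBS (1.38, SE 0.18, limma adjusted p = 0.00241). The call after CpG was lost without replicate 3 of the CpG-treated Ly-6D+ group or replicate 2 or 3 of the CpG-treated Ly-6D- group (up to 0.0752). Batf3, a transcription factor of conventional dendritic cells, was lower in Ly-6D+ CLPs after CpG (-0.89, SE 0.19, limma adjusted p = 0.0460), and Id2 (-0.75) and Naaa (-1.11) had non-overlapping arrays in that direction without passing (limma adjusted p = 0.0580 and 0.0711). For the CpG effect averaged over the populations, Ciita, the activator of MHC class II genes (1.03, SE 0.14, limma adjusted p = 0.0167), and Batf3 (0.92, SE 0.15, limma adjusted p = 0.0309) rose. Both calls of Batf3 held only without replicate 3 of the CpG-treated Ly-6D- group (up to 0.170 otherwise), and that of Ciita was lost without replicate 1 of the CpG-treated Ly-6D+ group, either PBS-treated Ly-6D+ array, or replicate 1 or 2 of the CpG-treated Ly-6D- group (up to 0.0895). B-lineage genes (12 measured of 13) moved most with the sort. Of these, 9 passed as higher in Ly-6D+ CLPs after CpG and 9 after PBS, with medians of 2.68 and 2.73. Of all genes, 1.2% and 1.18% did. Their array means were 7.70 to 7.92 in Ly-6D+ CLPs after CpG and 8.40 to 8.49 after PBS, against 5.24 to 5.55 in Ly-6D- CLPs after CpG and 5.91 to 5.93 after PBS. Averaged over both populations, 4 passed as lower after CpG (Vpreb3, Pou2af1, Rag2 and Bank1), beside 0.482% of all genes passing in either direction. The averaged calls of the last 3 were lost without replicate 1 of the CpG-treated Ly-6D- group, among others. On leaving out each array in turn, that of Rag2 held in 1 of 11 fits and those of Pou2af1 and Bank1 in 3 of 11. The Vpreb3 call was lost without either PBS-treated Ly-6D+ array, which leaves 1 array in that group (changes over all 11 omissions -1.19 to -0.98). All 7 genes of the set, Siglech among them, had the sign of the B-lineage list between the populations under both treatments. So did 23 of the 25 other plasmacytoid dendritic cell genes after CpG and 19 after PBS.

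**Figure D4:**
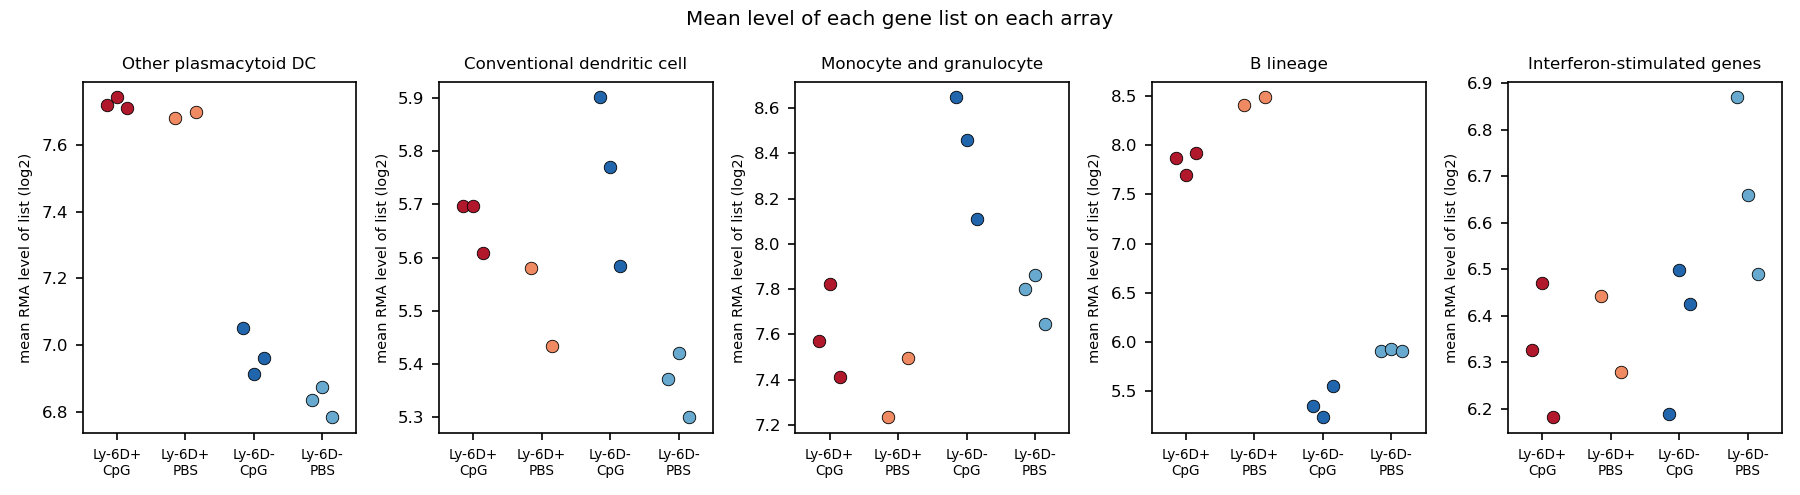
Mean log2 RMA level of 5 gene lists on each array (y axis; each point is 1 array; each panel has its own range), by population and treatment. The other plasmacytoid dendritic cell genes and the B-lineage genes are higher on all Ly-6D+ arrays, while the mean of the monocyte and granulocyte genes is highest on the 3 Ly-6D- CpG arrays.

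The relatives of these genes showed little of the same pattern. Of 7 other sialic acid-binding lectins measured, Cd22, a B-cell receptor of this family, was higher in Ly-6D+ CLPs after PBS (0.89, SE 0.19, limma adjusted p = 0.0401), and Cd33 fell in Ly-6D- CLPs after CpG by 1.05 on the log2 scale (SE 0.19, limma adjusted p = 0.0485). On leaving out each array in turn, the call of Cd22 held only without replicate 2 or 3 of the CpG-treated Ly-6D+ group or 2 of the CpG-treated Ly-6D- group (up to 0.249 otherwise), and that of Cd33 only without replicate 3 of the CpG-treated Ly-6D- group (up to 0.190 otherwise). Of 8 other CD300 genes, none passed for CpG in Ly-6D- CLPs, although 7 had a positive sign and the median was 0.35, and none passed between the populations after PBS. The nearest to Cd300c in that CpG comparison was Cd300a, an inhibitory receptor (0.68, SE 0.17, limma adjusted p = 0.124), and it was lower in Ly-6D+ CLPs after CpG (-0.90, SE 0.17, limma adjusted p = 0.0188), a call lost without replicate 3 of the CpG-treated Ly-6D+ or 1 of the CpG-treated Ly-6D- group (up to 0.0627). Runx1, Runx3 and their partner Cbfb passed in none of the 6 comparisons, nor did Pacsin2 and Pacsin3. The 4 genes measured as relatives of Lair1, Lilrb4a, Pirb, Gp6 and Ncr1, did not pass either. Of 14 other kallikrein genes, 1 passed, Klk8, which was lower in Ly-6D+ CLPs after CpG (-0.58, SE 0.11, limma adjusted p = 0.0204). In that direction 0.938% of all genes passed. The Klk8 call was lost without replicate 2 or 3 of either CpG-treated population (up to 0.0751).

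Among 3154 genes that spanned at least 1 log2 unit, the profiles most like each gene over the 11 arrays were listed by Pearson's r, which here mainly follows the gap between the populations and is given as a description. Siglech was most like Ly6d (0.995), Mzb1 (0.993) and Atp1b1 (0.993). Cox6a2 was most like Mctp2 (0.985), Ly6d (0.983) and Camkv (0.981), and Bst2 most like Plekhm3 (0.984), Gpr18 (0.983) and Tex2 (0.979). Pacsin1 was most like P2rx3 (0.980), Grhpr (0.978) and Grap2 (0.976). The pair with a low Ly-6D- PBS group had other neighbours: Cd300c was most like Carmil1 (0.970), Tlr9 (0.970) and Itgax (0.962), and Lair1 most like Ly86 (0.975), Tlr12 (0.962) and Ahnak (0.960). Klk1, whose replicates scattered, reached 0.859 with Gcnt4 and 0.814 with Chil6 and Dnaaf6.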

How the data were processed

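Values are log2 levels that the authors made by RMA with the Partek software, per the submitters' processing notes, without a stated version, from RNA amplified and labelled with NuGen kits, per the labels' protocols. RMA includes quantile normalisation and a median polish over probes, which can give arrays equal values. Signal over background was not examined, and the 2 or 3 arrays per group limit the precision.

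The deposited table held 41345 probe sets, and 23521 with exactly 1 symbol stood for 22180 genes, each by its brightest probe set. The means of the 4 groups were fitted jointly for all 22180 genes (limma 3.58.1, R 4.3.3, default eBayes, 7 residual and 3.48 prior degrees of freedom), and Benjamini-Hochberg adjusted p below 0.05 passed. SE and intervals are from the moderated spread. CpG was compared with PBS in each population, as an average and as a difference of populations, and the populations were compared within each treatment. Python 3.11.15, pandas 2.3.3 and matplotlib 3.10.9 made tables and figures. The fit was tested on simulated data.

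The genes and lists were chosen with earlier results of these data known. All listed genes of the set are named, with Ly6d, up to 4 genes of each other list with the smallest p in a comparison, and the 3 most similar profiles; further plasmacytoid dendritic cell genes were named after their values were seen. Other lists were NK and T cell genes (7 measured) and erythroid and megakaryocyte genes (5 measured, none passing). Of the 7, Thy1 alone passed, as higher in Ly-6D+ CLPs after CpG and after PBS, beside 1.2% and 1.18% of all genes. The Thy1 call after CpG was lost without any 1 array of either CpG-treated population, among others. Alternatives were averaged probe sets per gene, a filter on the dimmest 33.3%, a variance trend with robust estimation, only the groups compared, arrays centred on their medians, the replicate number as a block, and each array left out in turn.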

Additional observations from a re-analysis of the deposited data

How the results depend on the processing

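Of the alternative values for the 7 genes, 665 kept direction and side of the threshold, 21 lost the call, 5 gained it and 9 changed sign. For CpG in Ly-6D- CLPs, 1 of the 7 genes passed, and 2 did without the dimmest genes (Lair1 joining at a limma adjusted p of 0.0340), 2 with centred arrays (Lair1, 0.0491), 4 with a variance trend and robust estimation (Lair1 0.0157, Bst2 0.0344 and Cox6a2 0.0368 joining), 0 with only the groups compared (Cd300c 0.101) and 0 with the replicate block (Cd300c 0.0697). Between the populations after PBS, Cox6a2 (0.1003) and Lair1 (0.224) did not pass with only the groups compared, nor Lair1 with the replicate block (0.0631). Leaving out each array in turn, 0 to 1 of the 7 passed for CpG in Ly-6D- CLPs, 4 between populations after CpG and 4 to 6 after PBS. Without 1 of the Ly-6D+ PBS arrays the lone array left is taken to vary like the other groups. The log2 values of Klk1 then ran from -0.52 to 1.83 for CpG in Ly-6D+ CLPs, -0.38 to 0.90 in Ly-6D- CLPs, -0.13 to 1.05 for their average, -0.79 to 1.57 for their difference and -0.085 to 2.27 between populations after PBS. The difference of CpG effects for Pacsin1 ran from -0.21 to 0.057, and was 0.016 with the replicate block. The cause of these changes was not tested. The labels do not say whether Ly-6D+ and Ly-6D- samples came from the same mice. The replicate number was not taken as pairing the arrays, since the deviations of 15 same-numbered pairs correlated at -0.04 to 0.13, with 1 over 0.1, and other pairs at -0.09 to 0.06; the arrays numbered 3 were all positive among themselves (0.043 to 0.13).

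Over all genes, the 6 that passed for CpG in Ly-6D+ CLPs became 18 with a variance trend, 0 with only the groups compared and 11 with the replicate block (4 to 16 leaving out arrays). The 121 in Ly-6D- CLPs became 236 without dim genes, 425 with a variance trend and 4 with only the groups compared (5 to 309). The average gave 107, 302 with a variance trend (6 to 216). The populations after CpG gave 474, 726 with a variance trend and 264 with only the groups compared (264 to 516), and after PBS 439, 660 and 190 (185 to 416). Each of the 7 genes had 1 probe set, so the choice of probe set could not change its values.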
